A study of Drosophila melanogaster with 18 samples.

Results

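Basement membrane genes were followed in developing wings of Drosophila melanogaster. The 10 genes were chosen by function, with earlier results of these data known, among them that LanA moved against the others. The choice took the 4 laminin chains (LanA, LanB1, LanB2, wb), the 2 collagen IV chains (Col4a1, vkg), and SPARC, Ndg, trol and Pxn. These genes are 10 of the 13731 with values in the deposited tables. All 10 passed the filter on low counts, which left 9672 genes for testing. A basement membrane is the thin sheet of matrix under an epithelium. Laminin heterotrimers of an alpha, a beta and a gamma chain bind cell surfaces and start the sheet, collagen IV gives it tensile strength, nidogen and perlecan join both networks, and peroxidasin crosslinks collagen IV. In the pupal wing, a dorsal and a ventral epithelium separate, their old matrix is cut and cleared, and they meet again through new basal contacts before the wing expands.

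RNA was sequenced from dissected pupal wings, at least 40 in each sample, 24 h and 44 h after puparium formation. The control flies carried the driver rn-Gal4 alone. Another genotype had rn-Gal4 with UAS-E93RNAi (E93RNAi), and the last had rn-Gal4 with UAS-brRNAi and UAS-E93RNAi (E93RNAi+brRNAi). Each genotype and time had 3 libraries, or 18 in all. rn-Gal4 follows the rotund gene in the wing, so cells outside its domain were not targeted, and a whole-wing library mixes both. A group with UAS-brRNAi but no UAS-E93RNAi was not analysed here. E93 (gene Eip93F) and broad (gene br) are transcription factors of the ecdysone cascade, E93 acting in adult and br in pupal development. Whether libraries of a group were raised as separate crosses is not in the labels, so p-values measure the spread between these libraries alone, and that spread may be technical.

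Library totals ran from 17627937 to 22940404 counts. In the libraries labelled E93RNAi, Eip93F lay at 24 h between 1886 and 2270 CPM (counts scaled to library size by TMM), overlapping with the 2018 to 2115 CPM of control (adjusted p = 0.935, edgeR), and at 44 h between 1113 and 1182 CPM against 1243 to 1337 CPM (log2 -0.15 ± 0.06, adjusted p = 0.0522). In E93RNAi+brRNAi, Eip93F was above control at 24 h (2334 to 2414 CPM, log2 0.19 ± 0.06, adjusted p = 0.0214) and below it at 44 h (811 to 922 CPM, -0.57 ± 0.06, adjusted p = 1.53e-07). The RNase gene Dcr-2 was at 24 h 23.4-fold higher in E93RNAi than in control and 39.5-fold higher than in E93RNAi+brRNAi. At 44 h it was 34.9-fold and 42.1-fold higher, a difference that the labels do not name. In E93RNAi+brRNAi, Dcr-2 was below control at 24 h (log2 -0.76 ± 0.11, adjusted p = 1.73e-05, edgeR) and not called at 44 h (-0.27 ± 0.12, adjusted p = 0.0705). All comparisons below are therefore between libraries as labelled. Effects of the RNAi transgenes and of the Dcr-2 difference cannot be told apart. br was listed under its former identifier FBgn0000210, which was matched by hand and by implied length. Within 10 bases, 2 other features without a matched symbol also had the length of a br transcript. br was at 95.1 ± 10.9 CPM (SD, n = 3) in E93RNAi at 24 h, and at 14.8 ± 1.96 (control) and 17.96 ± 4.09 CPM (E93RNAi+brRNAi). At 44 h br was at 50.2 ± 2.57 CPM in E93RNAi, 1.70 ± 0.645 CPM in control and 7.63 ± 1.18 CPM in E93RNAi+brRNAi, which was above control (log2 2.14 ± 0.26, adjusted p = 8.32e-07). Replicate 3 of E93RNAi at 24 h and replicate 3 of E93RNAi+brRNAi at 44 h stood apart from the other libraries of their groups, with a chi-square per degree of freedom of their counts between 17.6 and 25.5, against 2.77 to 10.3 for all other pairs. Calls that turn on them are named below. Without the first, the 24 h differences of E93RNAi from control were 2.98 for LanA, 1.53 for Ndg, 0.75 for trol, 0.88 for Col4a1 and 0.66 for vkg on the log2 scale, and without the second, the 44 h differences of E93RNAi+brRNAi from control were -0.22 for LanB1, -0.43 for LanB2 and -0.33 for wb, all still called. In whole-wing RNA, fewer cells of a type and less RNA per cell cannot be told apart.

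Between 24 h and 44 h, all 10 genes rose in control wings, while in E93RNAi wings 6 rose and LanA fell. In control the median log2 difference of the 10 genes was 1.72, against -0.0138 over all genes tested, of which 75.3% were called in either direction and 37.1% as higher (edgeR quasi-likelihood test, Benjamini-Hochberg adjusted p under 0.05 over all tested genes). In E93RNAi the median was 1.07, beside 74.5% of all genes called, 38.1% higher and 36.4% lower. In E93RNAi+brRNAi, 7 of the 10 rose and 2 fell, with a median of 1.14, beside 75.8% of all genes called, 37.8% higher and 38% lower. Against control, E93RNAi levels were called more often as higher at 24 h and more often as lower at 44 h. At 24 h, 6 of the 10 were higher and 2 lower in E93RNAi than in control, beside 43.9% of all genes called, 21.7% higher and 22.3% lower. At 44 h, 2 were higher and 5 lower, beside 39.6% of all genes called, 20.6% higher and 18.9% lower.

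**Figure D1:**
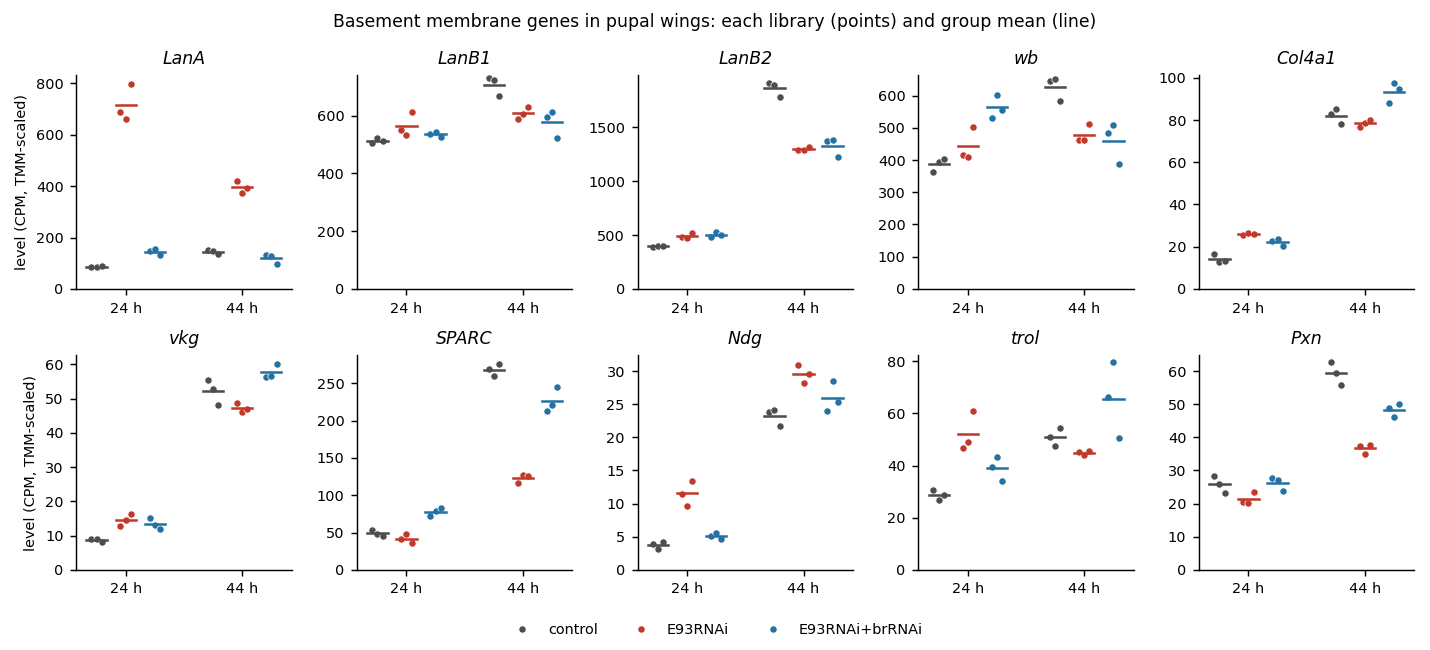
Level of each of the 10 genes (vertical axis, TMM-scaled CPM, starting at 0) by time after puparium formation and genotype, with 1 point per library and a line at the mean of 3. LanA is highest in E93RNAi at both times (716 CPM at 24 h and 396 CPM at 44 h), while LanB2, Col4a1, vkg, SPARC, Ndg and Pxn are higher at 44 h than at 24 h in every genotype.

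Levels of different genes are compared here only in cRPKM, the deposited value, a count divided by the total of its library and by a length. The length implied for each of the 10 genes was that of 1 of its transcripts less 49 bases, to within 43 bases. Since wb has 6 annotated transcripts and trol 25, orders and ratios between genes hold for that length only. In control wings at 24 h, the beta chain LanB1 was the most abundant of the 10 at 88.7 ± 0.806 cRPKM, followed by the gamma chain LanB2 at 73.9 ± 0.574, SPARC at 47.8 ± 4.73 and the alpha chain wb at 36.7 ± 1.75 (SD, n = 3). The other alpha chain, LanA, came next at 7.92 ± 0.275 cRPKM, followed by Pxn at 5.44 ± 0.570, Col4a1 at 2.56 ± 0.397, trol at 2.28 ± 0.171, vkg at 1.49 ± 0.0929 and Ndg at 0.863 ± 0.119. Of these neighbours in the order, Col4a1 and trol overlapped between libraries and the others did not. At 44 h, LanB2 led at 302 ± 9.19 cRPKM, ahead of SPARC at 227 ± 8.72, LanB1 at 106 ± 4.47 and wb at 51.2 ± 2.66, and trol was lowest at 3.49 ± 0.265. Thus LanB1 transcript exceeded LanB2 transcript per length at 24 h, and LanB2 exceeded LanB1 at 44 h.

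In E93RNAi wings at 24 h, LanA stood at rank 3 in the order at 66.8 ± 5.99 cRPKM, above wb at 42.6 ± 4.59 and SPARC at 41.5 ± 6.47. Its libraries did not overlap with those of wb or of LanB2 (93.01 ± 3.36 cRPKM). At 44 h it stood at rank 5 in E93RNAi, at 34.0 ± 2.11 cRPKM, below wb at 42.4 ± 2.05. In E93RNAi+brRNAi it stood at rank 5 at 24 h (13.2 ± 1.04 cRPKM) and at rank 6 at 44 h (8.997 ± 1.44), as in control.

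LanA encodes a laminin alpha chain (FBgn0002526, chromosome 3L, 6203831 to 6218022, dm6). It showed the largest genotype difference of the 10 genes. That LanA moved against the others was known from these data beforehand, so its tests and ratios here are no independent evidence of that. At 24 h the control libraries held 84.6, 84.2 and 90.0 CPM, those of E93RNAi held 688, 662 and 798 CPM, and those of E93RNAi+brRNAi held 148, 155 and 133 CPM. The 3 genotypes did not overlap, with E93RNAi far above both others. The log2 fold change of E93RNAi over control was 3.05 ± 0.10 (SE), an 8.30-fold difference (adjusted p = 2.92e-15, edgeR), and 1.81% of all genes tested had a larger difference in either direction. Between 24 h E93RNAi+brRNAi and control it was 0.75 ± 0.09 (adjusted p = 2.02e-06), and between E93RNAi+brRNAi and E93RNAi it was -2.30 ± 0.09 (adjusted p = 2.43e-13). Since the last 3 contrasts share libraries, their values are given side by side only.

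At 44 h, LanA was at 151, 149 and 134 CPM in control, 420, 374 and 394 CPM in E93RNAi, and 132, 127 and 98.7 CPM in E93RNAi+brRNAi. E93RNAi again lay above the other genotypes without overlap, 2.74-fold over control (log2 1.45 ± 0.09, adjusted p = 4.44e-11). E93RNAi+brRNAi lay just below control (-0.28 ± 0.09, adjusted p = 0.0159). That last call rests on single libraries: LanA was at -0.16 without E93RNAi+brRNAi 44 h replicate 3 (adjusted p = 0.126), and the call was also lost without control 44 h replicate 1 or replicate 2 and in a fit of those groups alone. With time, LanA rose in control (0.75 ± 0.09) and fell in E93RNAi (-0.85 ± 0.09, adjusted p = 2.27e-08). In E93RNAi+brRNAi it fell by 0.29 on the log2 scale, and without replicate 3 of the 44 h group the value was -0.17 (adjusted p = 0.0635).

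wing blister, wb, encodes the other laminin alpha chain (FBgn0261563, chromosome 2L, 14263027 to 14328262) and is named for the wing blisters of its mutants. At 24 h it was at 363, 395 and 404 CPM in control, 414, 410 and 504 CPM in E93RNAi, and 531, 603 and 555 CPM in E93RNAi+brRNAi. Only E93RNAi+brRNAi was called above control (log2 0.54 ± 0.09, adjusted p = 9.60e-05). The E93RNAi difference was 0.19 ± 0.09 (adjusted p = 0.0932), and it passed without E93RNAi+brRNAi 44 h replicate 3 (0.21, adjusted p = 0.0236) and with no filter on low counts (0.22). At 44 h, wb was at 626 ± 37.2 CPM in control, 479 ± 29.4 CPM in E93RNAi and 460 ± 64.5 CPM in E93RNAi+brRNAi (SD, n = 3), lower in both than in control by 0.39 and 0.44 on the log2 scale. wb rose with time in control (0.69 ± 0.09), was at 0.11 ± 0.09 without a call in E93RNAi, and fell by 0.29 in E93RNAi+brRNAi, where the value without replicate 3 of the 44 h group was -0.18 (adjusted p = 0.0516).

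LanA made up a larger share of laminin alpha transcript in every E93RNAi library than in any library of the other genotypes. Both alpha chains pair with the same beta and gamma chains, and the share of LanA in the summed cRPKM of LanA and wb was 17.8% ± 0.643 in control at 24 h and 18.3% ± 0.167 at 44 h (SD, n = 3). In E93RNAi it was 61.1% ± 0.554 at 24 h and 44.5% ± 2.18 at 44 h. In E93RNAi+brRNAi it was 20.02% ± 1.23 at 24 h and 20.04% ± 0.758 at 44 h. No 2 genotypes overlapped at either time, and each comparison had p = 0.1 in a two-sided exact permutation test, the smallest p that 3 libraries against 3 allow. Over the 12 ratio comparisons made, the Benjamini-Hochberg adjusted p of each of these was 0.109.

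Relative to the beta chain, LanA was at a cRPKM ratio to LanB1 of 0.0893 in control and 0.673 in E93RNAi at 24 h, a 7.54-fold difference, and of 0.109 and 0.347 at 44 h, a 3.18-fold difference (exact permutation p = 0.1 for each, adjusted p = 0.109). In E93RNAi+brRNAi the ratio was 0.144 at 24 h. At 44 h it was 0.109 in E93RNAi+brRNAi, where it overlapped with control (exact permutation p = 0.8). The summed alpha chains stood at 0.503 of LanB1 in control at 24 h, 1.10 in E93RNAi and 0.720 in E93RNAi+brRNAi, and at 0.594, 0.779 and 0.546 at 44 h. These ratios do not depend on the library total.

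**Figure D2:**
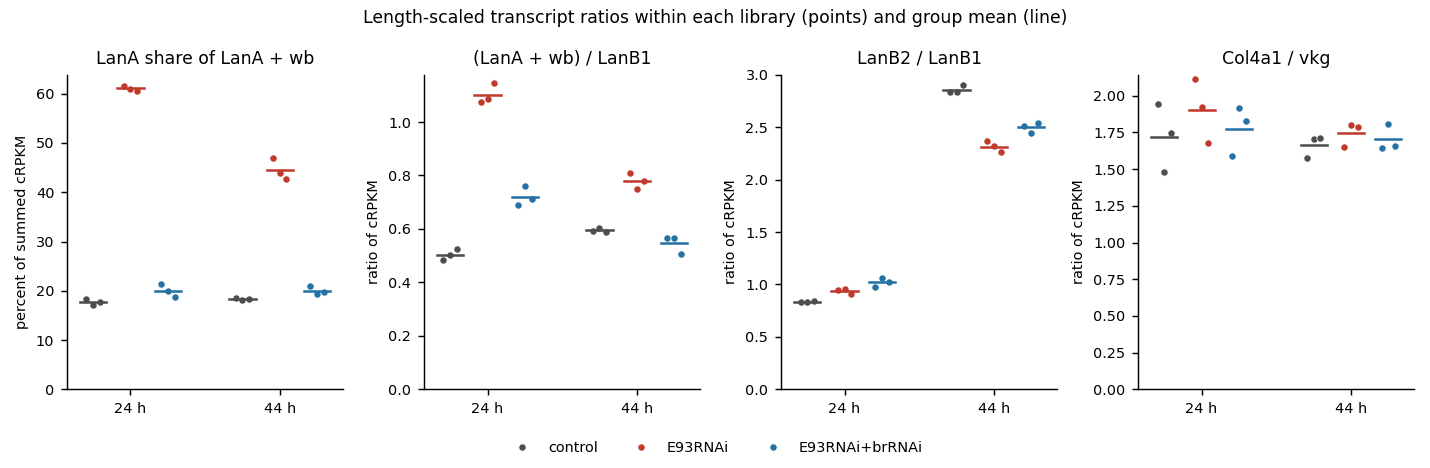
Ratios of deposited length-scaled values (cRPKM) within each library, by time and genotype, with 1 point per library and a line at the mean of 3: the percentage of LanA in LanA plus wb, LanA plus wb over LanB1, LanB2 over LanB1, and Col4a1 over vkg, each on an axis from 0. The LanA percentage is 61.1 in E93RNAi at 24 h and 44.5 at 44 h, against 17.8 to 20.04 in the other groups, while the Col4a1 to vkg ratio has group means between 1.66 and 1.90.

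LanB1 (FBgn0261800, chromosome 2L, 7811438 to 7820771) encodes the only laminin beta chain of the fly and had the smallest range of group means of the 10 genes, 0.46 on the log2 CPM scale. Its means were 513 ± 7.84 CPM in control, 565 ± 41.9 CPM in E93RNAi and 535 ± 9.05 CPM in E93RNAi+brRNAi at 24 h (SD, n = 3), with no call between them, although E93RNAi passed as higher with no filter on low counts (0.17, adjusted p = 0.0305) and without single libraries, such as replicate 2 of E93RNAi (0.18) or replicate 3 of 44 h E93RNAi+brRNAi (0.15). At 44 h they were 707 ± 34.9, 607 ± 20.1 and 577 ± 48.5 CPM, lower than control in E93RNAi (log2 -0.22 ± 0.06, adjusted p = 0.00630) and in E93RNAi+brRNAi (-0.29 ± 0.06). The first of those calls was lost with scaling by library totals alone (-0.11, adjusted p = 0.149). LanB1 rose with time in control (0.46 ± 0.06), and its differences in E93RNAi and E93RNAi+brRNAi were 0.11 and 0.11 without a call, but passed without E93RNAi 24 h replicate 3 (0.15, adjusted p = 0.0329) and without E93RNAi+brRNAi 44 h replicate 3 (0.17, adjusted p = 0.00916). With scaling by library totals alone, the E93RNAi+brRNAi difference passed as lower instead (-0.16, adjusted p = 0.0151).

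LanB2 (FBgn0267348, chromosome 3L, 9614914 to 9623980) encodes the only laminin gamma chain and had larger log2 differences with time than LanB1. In control it was at 388, 400 and 398 CPM at 24 h, and the 44 h libraries held 1914, 1896 and 1785 CPM, a 4.72-fold rise (log2 2.24 ± 0.06, adjusted p = 1.12e-18). In E93RNAi it went from 480, 472 and 515 CPM to 1287, 1292 and 1315 CPM, and in E93RNAi+brRNAi from 483, 532 and 497 CPM to 1377, 1383 and 1226 CPM. Those rises were 2.65-fold and 2.64-fold, and at each time control did not overlap with either RNAi genotype. At 24 h LanB2 was above control in E93RNAi (log2 0.31 ± 0.05) and in E93RNAi+brRNAi (0.35 ± 0.05), and at 44 h it was below control in both (-0.52 ± 0.05 and -0.49 ± 0.05). The LanB2 to LanB1 ratio of cRPKM was 0.833 at 24 h and 2.86 at 44 h in control, 0.939 and 2.32 in E93RNAi, and 1.02 and 2.50 in E93RNAi+brRNAi.

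Col4a1 (FBgn0000299, chromosome 2L, 5029609 to 5037279, plus strand) and viking, vkg (FBgn0016075, chromosome 2L, 5012144 to 5028191, minus strand), encode the collagen IV alpha chains. They lie head to head with 1417 bases between them, and they moved alike in these libraries. In control, Col4a1 was at 16.6, 12.7 and 13.5 CPM at 24 h, and the 44 h libraries held 82.9, 85.4 and 78.1 CPM. vkg was at 8.98, 9.02 and 8.12 CPM at 24 h, and the 44 h libraries held 55.4, 52.8 and 48.0 CPM. The rises were 5.78-fold and 5.99-fold (log2 2.53 ± 0.08 and 2.58 ± 0.09, adjusted p = 2.36e-17 and 4.21e-16), with no overlap between times.

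At 24 h, Col4a1 was at 25.5, 26.3 and 26.2 CPM in E93RNAi and at 22.9, 23.8 and 20.5 CPM in E93RNAi+brRNAi, all above control. The log2 difference from control was 0.87 ± 0.08 in E93RNAi (adjusted p = 4.67e-08) and 0.66 ± 0.08 in E93RNAi+brRNAi (adjusted p = 2.93e-06). For vkg, at 12.7, 14.4 and 16.4 CPM and at 15.2, 13.1 and 11.8 CPM, the differences were 0.74 ± 0.10 and 0.62 ± 0.10, also without overlap with control. At 44 h, neither collagen gene was called between E93RNAi and control (Col4a1 -0.07 ± 0.07, adjusted p = 0.455, and vkg -0.14 ± 0.08, adjusted p = 0.165), and Col4a1 was at 0.05 with scaling by library totals alone. In E93RNAi+brRNAi, Col4a1 was at 93.3 ± 4.85 CPM against 82.1 ± 3.73 CPM in control at 44 h (0.18 ± 0.07, adjusted p = 0.0260). That call was lost without control 44 h replicate 3 (0.16), without E93RNAi+brRNAi replicate 2 (0.16) or replicate 3 (0.18), and with scaling by upper quartile (0.15) or by library totals alone (0.11). Over the 6 group means, each gene centred on its own mean, Col4a1 and vkg differed by a root mean square of 0.06 on the log2 CPM scale, the smallest distance between any pair of the 10 genes.

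**Figure D3:**
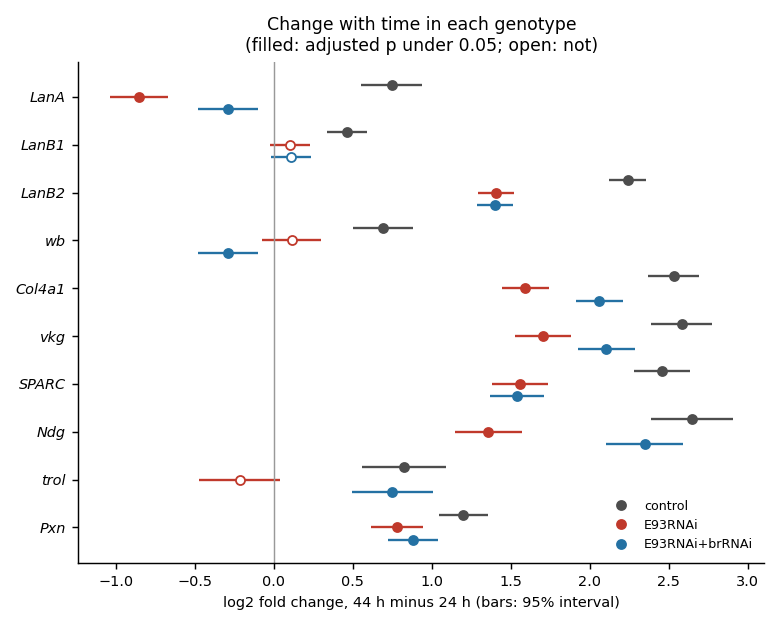
Log2 fold change from 24 h to 44 h (horizontal axis) for each of the 10 genes (vertical axis) in control, E93RNAi and E93RNAi+brRNAi, with bars for 95% intervals and filled points for adjusted p under 0.05. In control every point lies above 0, from 0.46 (LanB1) to 2.65 (Ndg), while LanA lies at -0.85 in E93RNAi and at -0.29 in E93RNAi+brRNAi.

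SPARC (FBgn0026562, chromosome 3R, 26869238 to 26871995) encodes a small collagen-binding protein made by cells that secrete collagen IV. In control it was at 53.8, 47.3 and 45.4 CPM at 24 h, and the 44 h libraries held 270, 259 and 276 CPM, a 5.50-fold rise. At 44 h E93RNAi held 116, 127 and 125 CPM, less than in any control library (log2 -1.13 ± 0.08, adjusted p = 3.07e-10), and E93RNAi+brRNAi held 213, 221 and 245 CPM. SPARC had the largest fall of the 10 genes in E93RNAi at 44 h, where neither collagen IV gene was called. E93RNAi+brRNAi was above E93RNAi at 44 h (0.88 ± 0.08, adjusted p = 1.40e-08) and just below control (-0.25 ± 0.08, adjusted p = 0.0137), the last call being lost without control 44 h replicate 3 (-0.22), E93RNAi+brRNAi replicate 1 (-0.20) or replicate 2 (-0.22). At 24 h, SPARC was at 72.7, 78.4 and 82.4 CPM in E93RNAi+brRNAi, above control (0.67 ± 0.09, adjusted p = 3.08e-06) and above E93RNAi (0.90 ± 0.09). At 24 h E93RNAi, at 40.6, 48.2 and 36.2 CPM, overlapped with control, and its call as lower (-0.23 ± 0.09, adjusted p = 0.0421) was lost in 14 of 18 fits that left out a single library, with values from -0.34 to -0.12.

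Ndg (FBgn0026403, chromosome 2R, 10313891 to 10322104) encodes nidogen, which links laminin to collagen IV, and was the least abundant of the 10 genes in control at 24 h. Its level there was 3.82, 3.12 and 4.13 CPM, from 74, 62 and 88 counts. E93RNAi held 11.5, 9.62 and 13.5 CPM at 24 h, 3.11-fold more (log2 1.64 ± 0.13, adjusted p = 5.95e-09), and E93RNAi+brRNAi held 5.11, 5.59 and 4.60 CPM. After LanA, this was the largest E93RNAi difference at 24 h among the 10 genes, and no genotype overlapped with another. The difference of E93RNAi+brRNAi from control at 24 h (0.46 ± 0.15, adjusted p = 0.0233) was lost without control 24 h replicate 2 (0.36) and without E93RNAi+brRNAi replicate 1 (0.47) or replicate 2 (0.40). At 44 h Ndg was at 23.8, 24.1 and 21.7 CPM in control, 31.0, 28.2 and 29.5 CPM in E93RNAi, and 23.9, 28.5 and 25.4 CPM in E93RNAi+brRNAi, with E93RNAi above control by 0.35 ± 0.10 (adjusted p = 0.00611). Ndg rose 6.26-fold with time in control, 2.56-fold in E93RNAi and 5.09-fold in E93RNAi+brRNAi. 158 of its 4816 exonic bases overlap with CG34222 on the opposite strand, and whether counting used the strand is not given in the sources used here.

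trol (chromosome X, 2470460 to 2545427) encodes perlecan, the large heparan sulfate proteoglycan of basement membranes. It was listed under its former identifier FBgn0261451, and the length implied by its values, 13525 bases, was within 10 bases of a trol transcript of 13564 bases less 49 bases, the offset between implied and annotated length. At 24 h it was at 30.8, 27.0 and 28.7 CPM in control, 46.7, 49.1 and 60.8 CPM in E93RNAi, and 39.5, 43.4 and 34.0 CPM in E93RNAi+brRNAi. Both RNAi genotypes lay above control, by 0.86 ± 0.13 (adjusted p = 2.05e-05) and 0.44 ± 0.13 (adjusted p = 0.0136), the second call being lost without control 24 h replicate 2 (0.39) and without E93RNAi+brRNAi replicate 2 (0.36). At 44 h it was at 50.9, 47.6 and 54.6 CPM in control, 45.1, 44.1 and 45.7 CPM in E93RNAi, and 66.3, 79.7 and 50.7 CPM in E93RNAi+brRNAi, a group that overlapped with control. Its difference there from control (0.36 ± 0.12, adjusted p = 0.0201) was 0.20 without replicate 2 of E93RNAi+brRNAi (adjusted p = 0.165), was 0.32 without control 44 h replicate 2, and was 0.29 with scaling by library totals alone, with no call in each case. The 44 h difference of E93RNAi from control had no call (-0.18 ± 0.12, adjusted p = 0.270, edgeR). It passed as lower in a fit of those groups alone (-0.18, adjusted p = 0.0182). trol rose with time in control (0.82 ± 0.13) and in E93RNAi+brRNAi (0.75 ± 0.12), and its difference in E93RNAi was -0.21 ± 0.12 without a call. That difference passed as lower without E93RNAi 24 h replicate 1 (-0.30) or E93RNAi+brRNAi 44 h replicate 3 (-0.23). The same held with library totals alone (-0.33) and with no filter on low counts (-0.25).

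Pxn (FBgn0011828, chromosome 3L, 2601455 to 2630064) encodes peroxidasin. It was at 28.3, 25.9 and 23.3 CPM in control at 24 h, and the 44 h libraries held 62.7, 59.4 and 55.9 CPM, a 2.30-fold rise. Like SPARC, it was lower in E93RNAi than in control at 44 h, at 37.4, 34.97 and 37.7 CPM without overlap (log2 -0.69 ± 0.07, adjusted p = 1.26e-07), and lay between them in E93RNAi+brRNAi, at 48.8, 46.1 and 49.9 CPM. At 24 h, E93RNAi held 20.5, 20.2 and 23.5 CPM, overlapping with control (-0.27 ± 0.08, adjusted p = 0.0102), and the call was lost without control 24 h replicate 1 (-0.20) or E93RNAi replicate 1 (-0.23). E93RNAi+brRNAi was not called against control at 24 h (0.02 ± 0.08, adjusted p = 0.875). 82 of its 5955 exonic bases overlap with CG16986 on the opposite strand and 151 with lncRNA:CR45660 on the same strand.

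With both RNAi transgenes, the basement membrane genes were mostly above control at 24 h and below it at 44 h. At 24 h, 8 of the 10 were higher than control and none lower by this test, beside 30.5% of all genes called, 14.7% higher and 15.8% lower, and the median log2 difference was 0.50. The 2 without a call were LanB1 (0.06 ± 0.06) and Pxn. At 44 h, 2 were higher (Col4a1 and trol) and 6 lower, beside 45.6% of all genes called, 23% higher and 22.6% lower. With scaling by library totals alone, which shifted the median of all genes by -0.07 there, 0 were higher and 6 lower.

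E93RNAi+brRNAi was set against E93RNAi at each time, groups that differ in Dcr-2 as well as in the br transgene of their labels. At 24 h, E93RNAi+brRNAi was below E93RNAi in 4 of the 10 genes and above it in 3, beside 41.2% of all genes called, 20.2% higher and 21.1% lower. The 4 were LanA, Ndg (log2 -1.18 ± 0.12, adjusted p = 2.83e-07), trol (-0.42 ± 0.12) and Col4a1 (-0.22 ± 0.08). All 4 were above control in E93RNAi, as were vkg and LanB2, which were not called here (-0.12 ± 0.09 and 0.04 ± 0.05). Both contrasts use the same E93RNAi libraries, so their directions are not independent. The 3 were SPARC, wb (0.35 ± 0.09) and Pxn (0.29 ± 0.08). The trol call was lost without replicate 3 of E93RNAi (-0.31) or of E93RNAi+brRNAi (-0.34) at 24 h. The Col4a1 call was lost without replicate 2 (-0.21) or 3 (-0.22) of E93RNAi, without replicate 3 of E93RNAi+brRNAi (-0.16), and in a fit of those groups alone (-0.19). At 44 h, 5 genes were above E93RNAi and LanA below it, beside 48.8% of all genes called, 24.9% higher and 23.9% lower, but with scaling by library totals alone, which shifted the median of all genes by -0.19, 3 were higher and 5 lower. SPARC, trol (0.54 ± 0.12, adjusted p = 0.00107) and Pxn (0.40 ± 0.07) were higher under both scalings, and Col4a1 (0.25 ± 0.07) and vkg (0.28 ± 0.08) lost their calls with library totals alone (0.06 and 0.10). Under that scaling LanB1 (-0.26), LanB2 (-0.15), wb (-0.24) and Ndg (-0.37) joined LanA as lower.

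**Figure D4:**
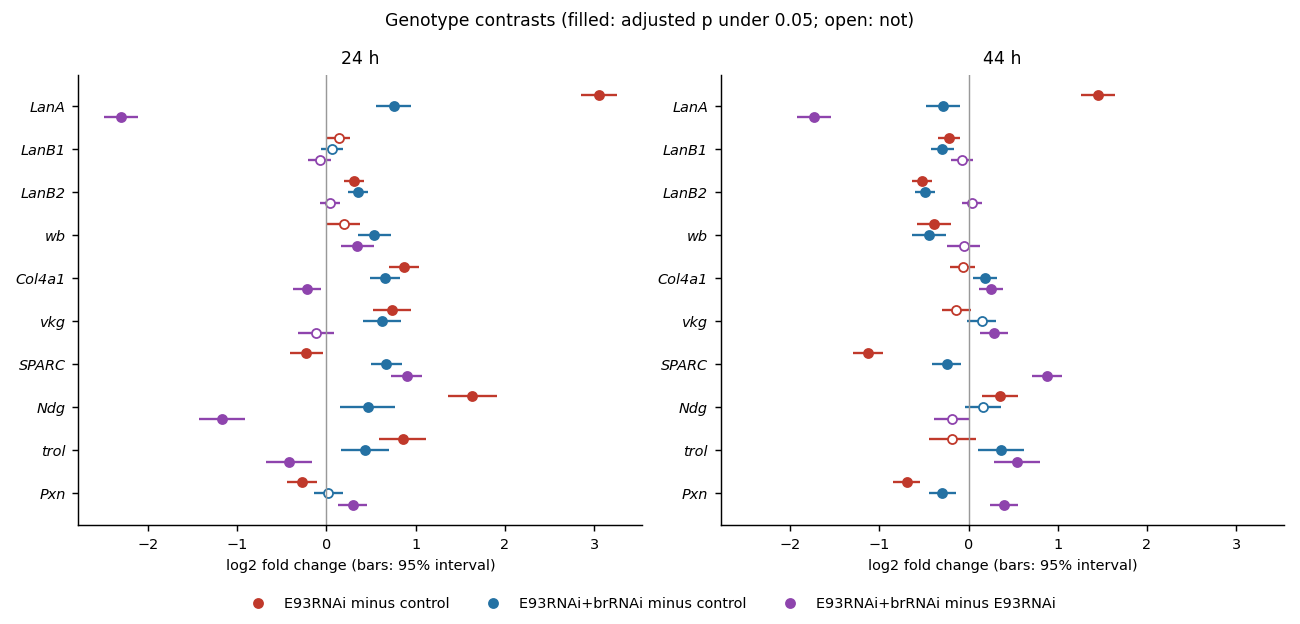
Log2 fold changes between genotypes (horizontal axis) for each of the 10 genes (vertical axis) at 24 h (left) and 44 h (right), with bars for 95% intervals and filled points for adjusted p under 0.05, all with TMM scaling. LanA lies at 3.05 and 1.45 for E93RNAi minus control and at -2.30 and -1.73 for E93RNAi+brRNAi minus E93RNAi, and SPARC lies at -1.13 for E93RNAi minus control at 44 h.

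Whether a genotype difference itself changed between the times was tested as an interaction in the same fit. The E93RNAi difference from control was lower at 44 h than at 24 h for all 10 genes and higher for 0, beside 37.9% of all genes called, 19.9% as higher and 18% as lower, and this count was the same under each scaling and without each single library. The median over the 10 was -0.89, against 0.0245 over all genes. The values were largest for LanA (-1.60 ± 0.13, adjusted p = 4.75e-09), Ndg (-1.29 ± 0.17) and trol (-1.04 ± 0.18), and smallest for Pxn (-0.42 ± 0.11) and LanB1 (-0.36 ± 0.09). For the E93RNAi+brRNAi difference from control, 8 of the 10 were called as lower at 44 h, beside 38.5% of all genes called, 20% as higher and 18.5% as lower, and Ndg (-0.30 ± 0.18) and trol (-0.07 ± 0.18) had no call. For E93RNAi+brRNAi against E93RNAi, 5 were higher (LanA, Col4a1, vkg, Ndg and trol) and wb lower, beside 33.5% of all genes called, 17.5% higher and 16% lower.

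**Figure D5:**
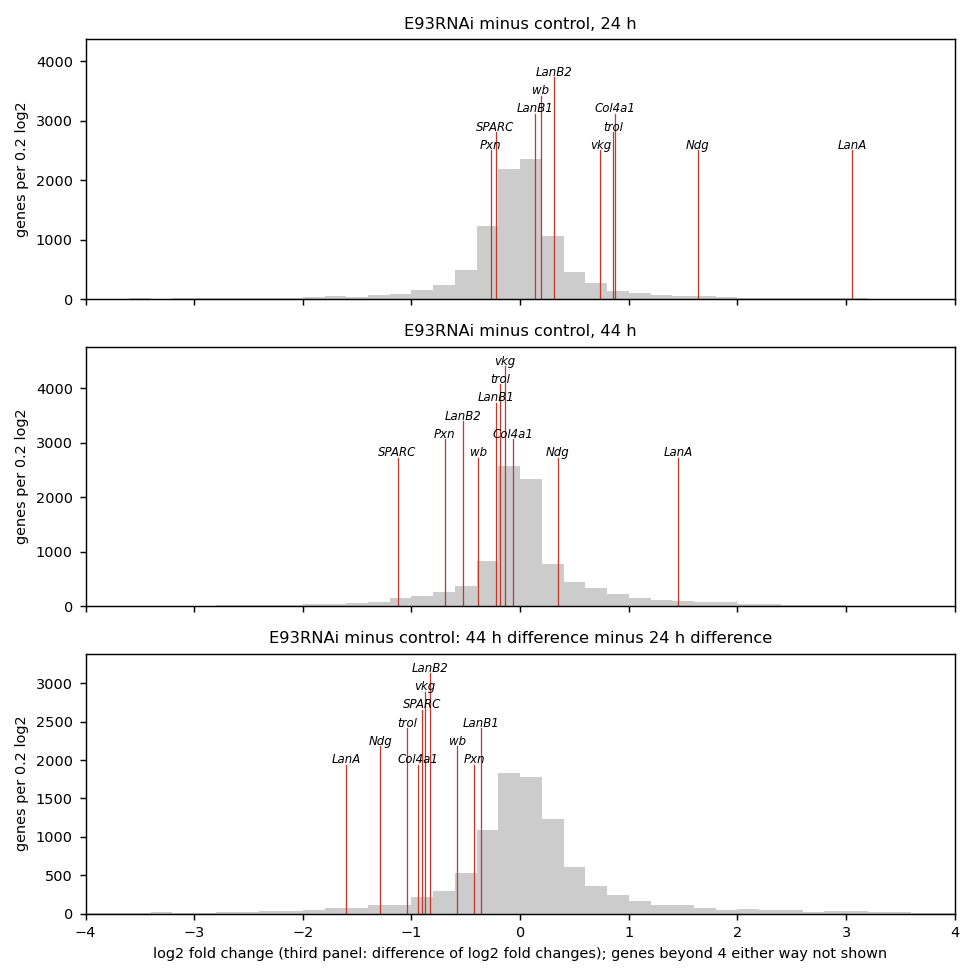
Number of genes per 0.2 log2 (vertical axis) among the 9672 tested, by log2 fold change of E93RNAi minus control (horizontal axis) at 24 h, at 44 h, and for the 44 h difference minus the 24 h difference, with a red line at each of the 10 genes. The 10 lines run from -0.27 to 3.05 at 24 h and from -1.13 to 1.45 at 44 h, and all lie below 0 in the bottom panel, from -1.60 to -0.36.

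The same contrasts were read for other genes of the matrix and for markers of other cell types. In E93RNAi against control, the counts of each list stand beside 43.9% of all genes called at 24 h and 39.6% at 44 h. Of 8 further basement membrane proteins, 4 were higher and 1 lower in E93RNAi than in control at 24 h, and 4 were higher and 3 lower at 44 h. Those called were 62.5% of the list at 24 h and 87.5% at 44 h. Ppn, which encodes the matrix protein papilin, was at 225 ± 11.1 (control) and 311 ± 26.6 CPM (E93RNAi) at 24 h, while the 44 h means were 199 ± 14.1 and 286 ± 8.57 CPM (log2 0.52 ± 0.08 at 44 h). loh, a relative of papilin, was at 0.640 ± 0.137 CPM in control and at 2.37 ± 0.391 CPM in 24 h E93RNAi (1.87 ± 0.26). NetA, a netrin, rose in E93RNAi against control at both times (0.31 ± 0.05 and 0.92 ± 0.05), and Cow, a secreted proteoglycan that binds Wingless, fell by 1.34 at 24 h and by 2.03 at 44 h. With time in control, 3 of the 8 rose and 3 fell, beside 75.3% of all genes called, with a median of -0.16, where the 10 genes above had a median of 1.72.

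Among 11 laminin and matrix receptors with values, 3 were higher and 1 lower in E93RNAi than in control at 24 h, and 3 were higher and 3 lower at 44 h. Those called were 36.4% of the list at 24 h, no more than among all genes, and 54.5% at 44 h. The integrin alpha chain gene if was at 203 ± 10.2 (control) and 208 ± 11.6 CPM (E93RNAi) at 24 h, while the 44 h means were 828 ± 40.9 and 429 ± 31.6 CPM (log2 -0.95 ± 0.07, adjusted p = 5.12e-10). The integrin beta chain gene mys was at 608 ± 25.5 and 446 ± 22.3 CPM at 44 h (-0.45 ± 0.06). Sdc, the syndecan gene, was higher in E93RNAi at 24 h (0.37 ± 0.05). Of 4 genes for collagen modification and secretion, 1 was higher and 0 lower in E93RNAi than in control at 24 h. At 44 h, 1 was higher and 1 lower, and those called were 25% of the list at 24 h and 50% at 44 h. With time in control, 2 of the 4 rose and 1 fell, 75% of the list beside 75.3% of all genes. Plod went there from 73.8 ± 2.21 to 112 ± 2.04 CPM and Rab10 from 76.9 ± 0.861 to 97.0 ± 1.35 CPM. PH4alphaEFB, a prolyl 4-hydroxylase, fell in control from 73.1 ± 2.57 CPM at 24 h to 17.9 ± 0.818 CPM at 44 h while collagen IV transcript rose. At 44 h it was at 46.3 ± 2.43 CPM in E93RNAi and 105 ± 11.3 CPM in E93RNAi+brRNAi (log2 1.37 ± 0.07 and 2.55 ± 0.07 over control).

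Of 6 tested genes for matrix cutting, its inhibition and crosslinking, 2 were higher and 3 lower in E93RNAi than in control at 24 h, and 2 were higher and 1 lower at 44 h, or 83.3% and 50% of the list. stl, an ADAMTS protease gene, was at 7.76 ± 1.31 (control) and 128 ± 6.78 CPM (E93RNAi) at 24 h (log2 4.04 ± 0.09), while the 44 h means were 71.4 ± 0.319 and 307 ± 7.88 CPM. Timp, the inhibitor of matrix metalloproteases, was lower in E93RNAi at 24 h (8.26 ± 0.911 CPM in control and 3.34 ± 0.361 CPM in E93RNAi, -1.30 ± 0.15). Mmp1, a matrix metalloprotease gene, fell with time in control from 295 ± 11.8 to 33.8 ± 2.67 CPM. In E93RNAi it lay below control at 24 h, at 216 ± 17.2 CPM without overlap. At 44 h it lay above control in E93RNAi, at 67.4 ± 1.85 CPM (1.00 ± 0.09 over control).

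Markers of other cell types also differed between groups. Collagen IV and peroxidasin are known products of hemocytes and, for collagen IV, of the fat body. The 12 hemocyte markers with values summed to 272 to 277 CPM in control at 24 h and 500 to 509 CPM at 44 h, 265 to 273 and 441 to 455 CPM in E93RNAi, and 316 to 326 and 486 to 527 CPM in E93RNAi+brRNAi, mostly from the ferritin gene Fer2LCH, which other cells make too. Of 10 hemocyte markers tested, 8 rose and 1 fell with time in control, beside 75.3% of all genes called. In E93RNAi against control, 2 were higher and 0 lower at 24 h, 20% of the list beside 43.9% of all genes, and 2 were higher and 5 lower at 44 h, 70% beside 39.6%. In E93RNAi+brRNAi against control, 4 were higher and 0 lower at 24 h, beside 30.5% of all genes called, and 2 were higher and 3 lower at 44 h, beside 45.6%. Among defining markers, Hml was at 4.04 ± 0.0988 CPM in E93RNAi at 24 h and between 0.865 and 2.40 CPM in the other groups, He was at or under 0.111 CPM in every library, and PPO2 had no count in E93RNAi at 24 h and in control at 44 h. The 8 fat body markers summed to 575 to 685 CPM in control at 24 h, 693 to 716 CPM in E93RNAi and 522 to 555 CPM in E93RNAi+brRNAi, and to 358 to 490, 325 to 369 and 437 to 479 CPM at 44 h. In E93RNAi against control, 5 of the 8 were higher and 1 lower at 24 h, beside 43.9% of all genes called, and 5 were higher and 3 lower at 44 h, beside 39.6%. In E93RNAi+brRNAi against control, 4 were higher and 3 lower at 24 h, beside 30.5%, and 5 were higher and 2 lower at 44 h, beside 45.6%.

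The 12 muscle markers summed to 332 to 363 CPM in control, 404 to 446 CPM in E93RNAi and 254 to 278 CPM in E93RNAi+brRNAi at 24 h, and to 872 to 1010, 458 to 571 and 791 to 940 CPM at 44 h. In E93RNAi against control, 8 of them were higher and 2 lower at 24 h, beside 43.9% of all genes called, and 11 of 12 were lower at 44 h, beside 39.6%. In E93RNAi+brRNAi against control, 1 was higher and 3 lower at 24 h, beside 30.5%, and 4 were higher and 0 lower at 44 h, beside 45.6%. In E93RNAi+brRNAi against E93RNAi, 10 were lower at 24 h, beside 41.2%, and 10 were higher at 44 h, beside 48.8%. Mhc, the muscle myosin heavy chain gene, was at 1.05 ± 0.737 (control) and 34.1 ± 2.08 CPM (E93RNAi) at 24 h. The 3 tracheal markers summed to 314 to 322 CPM in control and 291 to 327 CPM in E93RNAi at 24 h, and to 180 to 188 and 216 to 237 CPM at 44 h, with 308 to 317 and 265 to 331 CPM in E93RNAi+brRNAi. The 4 glial markers summed to 326 to 338 CPM in control and 309 to 322 CPM in E93RNAi at 24 h, and to 361 to 376 and 303 to 320 CPM at 44 h, with 301 to 306 and 360 to 388 CPM in E93RNAi+brRNAi. Markers of the wing epithelium, 7 with values, were present in all libraries. They summed to 2463 to 2625 CPM in control, 2740 to 3157 CPM in E93RNAi and 2558 to 2713 CPM in E93RNAi+brRNAi at 24 h. At 44 h the sums were 1925 to 2056, 2083 to 2211 and 1859 to 2173 CPM. In E93RNAi against control, 5 of the 7 were higher and 1 lower at 24 h, beside 43.9% of all genes called. At 44 h, 3 were higher and 2 lower, beside 39.6%. With time in control, 1 rose and 5 fell, beside 75.3%. The part of these cell types in the results above was not tested.

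The gene whose 6 group means were most like those of LanA was Sdb, at a root mean square distance of 0.30 on the centred log2 CPM scale, with means of 66.8 (control) and 686 CPM (E93RNAi) at 24 h and of 117 and 203 CPM at 44 h. Snmp2 (0.47), MnM (0.49), CG7058 (0.49) and CG13033 (0.49) followed. Most like the mean of Col4a1 and vkg were CG12206 (0.13), a feature listed as FBgn0015541 (0.13), a feature listed as FBgn0262735 (0.14), CG13796 (0.15) and Trp1 (0.16), a gene of protein translocation into the endoplasmic reticulum. The group means of Trp1 in control were 145 CPM at 24 h and 677 CPM at 44 h. These distances describe 6 group means and carry no test.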

How the data were processed

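Each of the 18 libraries had a deposited table with 2 values per gene, a raw count of reads and cRPKM. The latter is an RPKM that the authors made by scaling the count by library total and a length for each gene. The build was dm6, per the submitters' processing notes. No aligner, counter or strand setting is stated in the sources used here. Of 13731 identifiers with values, 13511 matched a symbol in the Ensembl BDGP6 annotation, which also gave the coordinates.

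The quasi-likelihood test of edgeR 4.0.16 (R 4.3.3) was run on the deposited counts of all 18 libraries, with a mean for each of the 6 groups, TMM factors and filterByExpr. P-values were adjusted by Benjamini-Hochberg over the 9672 genes tested, and called means an adjusted p under 0.05. The common biological coefficient of variation came to 5.99%. Levels are TMM-scaled CPM with SD, and log2 fold changes carry SE. A single count was worth 0.0412 to 0.0617 CPM, which limits precision most for Ndg. Ratios used cRPKM with exact permutation tests over libraries. The fit was also run on simulated counts with few changed genes in a single group, unlike these data, so this did not test the scaling.

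The 10 genes and the other lists were chosen with earlier results of these data known. All 10 genes were tested in every comparison, though not each of their values is given in the text. Of the other lists, at most 3 genes per comparison are named by smallest adjusted p, plus any the list's text needs. The 5 genes most like LanA, and most like the mean of Col4a1 and vkg, are named too. Alternatives were DESeq2 1.42.0, other scalings, no filter, only the groups compared, a replicate block, each library left out, and ratios without length scaling or with a pseudocount of 1. Scaling by library totals alone and leaving out trol were added after the data were seen. List genes with no value under their current identifier were not analysed here.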

Additional observations from a re-analysis of the deposited data

Results flagged for a closer look

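These results are listed because a genotype difference itself differed between 24 h and 44 h by an interaction test (edgeR, adjusted p under 0.05). Of all genes tested, the same test called 37.9% for E93RNAi against control and 38.5% for E93RNAi+brRNAi against control. For E93RNAi+brRNAi against E93RNAi it called 33.5%, so a call alone does not set a gene apart. Values are the 44 h difference minus the 24 h difference, on the log2 scale.

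For E93RNAi against control, all 10 basement membrane genes were called. The laminin chains were at -1.60 (LanA), -0.58 (wb), -0.36 (LanB1) and -0.83 (LanB2). The collagen IV chains were at -0.94 (Col4a1) and -0.88 (vkg). SPARC was at -0.90, Ndg at -1.29, trol at -1.04 and Pxn at -0.42.

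For E93RNAi+brRNAi against control, the laminin chains were at -1.03 (LanA), -0.98 (wb), -0.35 (LanB1) and -0.84 (LanB2). Col4a1 was at -0.47, vkg at -0.48, SPARC at -0.92 and Pxn at -0.32. The Pxn call was lost in 5 fits that left out a single library.

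For E93RNAi+brRNAi against E93RNAi, LanA was at 0.57, Col4a1 at 0.47, vkg at 0.40, Ndg at 0.99 and trol at 0.96, and wb was at -0.40. The wb call was lost in 5 fits that left out a single library, and the vkg call with scaling by library totals alone (0.25, adjusted p = 0.0944).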

How the results depend on the processing

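Of 2900 values of single genes under other settings, 2804 kept their direction and their side of the threshold, 63 lost a call, 19 gained one in the same direction and 14 changed sign. None of those 14 differences was called with the main settings, and 2 of them passed with the other sign under library totals alone, as given below. DESeq2 and RLE size factors moved none of the 116 single-gene results. Scaling by library totals alone moved the median of all genes by between -0.27 and 0.11, and the share of calls that were higher from between 48.1% and 52.4% to between 25.6% and 72.3%. Under it Col4a1 was at 0.0468 in E93RNAi against control at 44 h, LanB2 at -0.15 in E93RNAi+brRNAi against E93RNAi at 44 h (adjusted p = 0.0188, and -0.0069 with upper quartile scaling), LanB1 at -0.0156 and wb at -0.007 with time in E93RNAi, and LanB1 at -0.16 with time in E93RNAi+brRNAi (adjusted p = 0.0151). Leaving out each library in turn, Pxn in E93RNAi+brRNAi against control at 24 h ran from -0.0436 to 0.0949, wb in E93RNAi+brRNAi against E93RNAi at 44 h from -0.1242 to 0.0598, LanB2 in that contrast at 24 h from -0.009 to 0.0741, and the trol interaction of E93RNAi+brRNAi against control from -0.2366 to 0.0824. The number of the 10 genes called in E93RNAi+brRNAi against control at 44 h ran from 5 (without E93RNAi+brRNAi replicate 2, where Col4a1, SPARC and trol were lost) to 8, and the log2 LanA to LanB1 ratio there from -0.05099 to 0.06481. The cause was not tested. Replicate numbers did not pair the libraries (same-number correlations of deviations from -0.11 to 0.09 over 45 pairs, and 1 of 18 libraries closest to its own number). A replicate block took the SPARC difference in E93RNAi at 24 h to -0.2287 (adjusted p = 0.0523) and changed no other call. Depth limits Ndg, at 62 to 88 counts per control library at 24 h.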
